A study of Mus musculus with 7 samples.

Results

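A set of 10 mRNAs of the cytoskeleton was followed in mouse embryonic stem cells (ESCs): the cytoplasmic actins Actb and Actg1, the α-tubulins Tuba1a, Tuba1b and Tuba1c, the β-tubulin Tubb5, the actin-binding proteins Cfl1, Pfn1 and Tmsb4x, and vimentin (Vim). They are given as a list of gene symbols, and all 10 symbols were found among the 13218 genes of the RNA probing data. CIRS-seq counts the positions at which reverse transcription (RT) stops, which lie 1 base from a residue modified by a chemical. E14 ESCs (strain 129/Ola) were lysed, the lysate of every library was deproteinized with Proteinase K, and the RNA was treated with dimethyl sulfate (DMS, a pool of treatments from 50 to 200 mM), with CMCT (a pool from 10 to 50 mM), or left non-treated (NT, a pool of both 0 mM controls). Each of the 3 groups had 2 biological replicates, and RNA-seq of ribosome-depleted RNA from 1 further library gave abundance. The RNA was probed in a lysate and not in living cells, and each group is 1 cell line.

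Actin polymerizes into filaments that give cells their shape and move their membranes. Cofilin (Cfl1) severs these filaments, profilin (Pfn1) hands actin monomers to growing ends, and thymosin beta 4 (Tmsb4x) keeps monomers in reserve. α- and β-tubulin form the dimers of microtubules, which carry the mitotic spindle and intracellular transport. Vimentin forms intermediate filaments and is best known from mesenchymal cells. DMS methylates A and C and CMCT modifies U and, less so, G, in each case where the residue is unpaired, so a treated library gains RT stops at such residues over the natural stops of NT. The actin and tubulin mRNAs are among the most abundant of most cells, and their genes have many processed pseudogenes, so that a short read of these mRNAs often has several places in the genome.

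Counting every genomic position once per gene, the 6 libraries held 140186204 to 247369982 RT stops. The RNA-seq library held 31857551 alignments, and the pluripotency markers Pou5f1, Nanog, Sox2, Klf4, Esrrb, Zfp42, Dppa5a, Tdgf1 and Lin28a were listed at 10.7 to 316 RPKM (alignments per kilobase of exon, scaled to the alignments counted). The 6 fibroblast markers, among them Col1a1 and Dcn, reached at most 0.336 RPKM. Of the 4 endoderm markers, Gata6 stood at 4.44, Gata4 at 2.16, Sox17 at 1.02 and Afp at 0 RPKM, and of 4 neural and mesoderm markers Neurod1 was highest, at 1.00 RPKM, against a median of 0.520 over protein-coding genes. The labels number the replicates, and the study describes them as biological replicates. Of all positions, 80.6% had a 25-base sequence found once in the genome, but those positions held only 9.06% of the RT stops. How each of the 10 mRNAs stands in this respect is therefore given before its values.

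In mm9, with GENCODE vM1 transcripts, Actb lies on the minus strand at chr5:143664794-143668433 and Actg1 on the minus strand at chr11:120207004-120209856. The α-tubulin genes lie close together on chromosome 15, Tuba1b at 98761856-98764996 and Tuba1a at 98780272-98783982 on the minus strand and Tuba1c at 98860322-98868536 on the plus strand. Tubb5 lies at chr17:35970871-35975251 (minus), Cfl1 at chr19:5490485-5494029 (plus), Pfn1 at chr11:70465352-70468146 (minus), Tmsb4x at chrX:163645025-163647247 (minus) and Vim at chr2:13495554-13504453 (plus). The transcripts described run from 861 bases (Pfn1) to 2644 bases (Tubb5), and the last 25 bases of each were left out of the values by region.

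Among the actins, 48.8% of the Actb positions and 0.532% of the Actg1 positions were followed by 25 bases found once in mm9. These positions held 33.7% of the Actb RT stops and 0.0363% of those of Actg1, pooled over the 6 libraries. Among the tubulins, Tuba1a had 15.2%, Tuba1b 10.4%, Tuba1c 30.4% and Tubb5 85.5% of its positions found once. The 3 α-tubulins held only 3.91%, 4.73% and 4.67% of their RT stops there, and Tubb5 held 46.5%. Cfl1 had 32.7% of its positions and 27.4% of its RT stops at sequences found once, and Pfn1 had 85.3% and 49.7%. Tmsb4x and Vim were nearly unique, with 94.4% and 91.0% of their positions and 96.7% and 87.1% of their RT stops.

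The α-tubulins shared not only sequence but counts. The coding position with the most RT stops was the same in all 3, base 1194 of the coding region, a G given in capitals here with the 25 bases that follow, 5′ to 3′ in mm9.
Tuba1a, chr15:98780602-98780627, minus strand: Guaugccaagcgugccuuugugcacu
Tuba1b, chr15:98762150-98762175, minus strand: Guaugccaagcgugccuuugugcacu
Tuba1c, chr15:98868284-98868309, plus strand: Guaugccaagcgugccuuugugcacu
The sequence is printed because it is identical in the 3 genes and was found at 10 places in mm9. Tuba1a and Tuba1c both had 232 and 81 RT stops at this G in the NT replicates, 655 and 50 in DMS, and 577 and 439 in CMCT. Tuba1b had 233 and 80 in NT, 654 and 51 in DMS, and 577 and 439 in CMCT. The counts of the 3 genes thus differed by at most 1 RT stop in each library, while the DMS replicates of each gene differed far more. Of the 450 shared positions of Tuba1a and Tuba1c with at least 50 RT stops, 262 (58.2%) had exactly equal counts in all 6 libraries, and 372 (82.7%) differed by at most 1 RT stop or 2%. For Tuba1b and Tuba1c, 452 of 507 (89.2%) lay within this tolerance, and for Tuba1a and Tuba1b 312 of 413 (75.5%). Actb and Actg1 shared 105 such positions, of which 19 (18.1%) were within the tolerance. Values of Tuba1a, Tuba1b and Tuba1c are therefore not separate measurements over most of their coding regions, and Actg1 is no separate measurement either, since 95.9% of its positions also lay in another listed gene.

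By RNA-seq, Actb was the most abundant of the 10, at 505 RPKM (95% exact Poisson interval 499 to 511, 1 library), and ranked 54 of 22265 protein-coding genes. Tuba1b followed at 413, Tuba1c at 317, Tuba1a at 294, Actg1 at 236, Tubb5 at 199, Cfl1 at 171, Pfn1 at 113, Tmsb4x at 83.2 and Vim at 36.6 RPKM. The intervals of neighbours in this order did not overlap, but they cover counting error only. The place of the α-tubulins and of Actg1 in this order rested on reads with several places in the genome. That of Cfl1 rested on such reads in part, with 38.4% of its exon bases found once. Restricted to positions found once, Actb stood at 401 RPKM, Tubb5 at 203, Cfl1 at 117, Tuba1b at 114, Pfn1 at 108, Tuba1a at 102, Tmsb4x at 83.5, Vim at 36.7, Tuba1c at 24.4 and Actg1 at 9.02. The last 2 of these are no levels of the mRNAs described. Those of Tuba1b and Tuba1a rest on 11.7% and 16.2% of the exon bases. Alignments per base differed by region, with 2.63 in the 5′ UTR against 11.3 in the coding region of Tuba1b and 1.18 against 7.46 in Tuba1a. The places of these 2 in the order are therefore not settled. In Actg1, 5 bases of the 5′ UTR, 5 of the coding region and 0 of the 3′ UTR were followed by a sequence found once, and in Tuba1c 500 such bases lay in the 5′ UTR and 87 in the coding region, with 0.192 RNA-seq alignments per base in the whole 5′ UTR against 10.1 in the coding region. The median of the 10 mRNAs was 217 RPKM with all reads and 105 RPKM with this restriction, with the values of Actg1 and Tuba1c included. Among the reads counted on a gene, the share whose name was listed for more than 1 alignment was 99.2% for Actg1 and 96.4% for Tuba1c. It was 94.2% for Tuba1b, 90.1% for Tuba1a and 42.5% for Cfl1, against 16.03% for Actb and 0.388% for Pfn1.

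The level of RT stops was expressed as RPKM, that is per kilobase of all bases listed for the gene and relative to the library's total stops after scaling by the TMM factors of edgeR. Of the actins, Actb stood at 249 and 289 in the NT replicates, at 135 and 113 in DMS and at 126 and 168 in CMCT. Both NT libraries were above all 4 treated ones. Actg1 had 69.7 and 52.4 in NT, 63.9 and 37.4 in DMS, and 61.2 and 73.7 in CMCT, and its groups overlapped.

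Of the tubulins, Tubb5 had NT apart from all treated libraries, as Actb did, with 114 and 126 in NT. It had 62.9 and 52.6 in DMS and 53.3 and 65.5 in CMCT, which overlapped each other. Tuba1b had 107.6 in both NT replicates, 87.0 and 64.6 in DMS, and 80.8 and 104 in CMCT, so NT was highest by a small margin. Tuba1a had 88.1 and 80.8 in NT, 81.2 and 57.5 in DMS, and 73.3 and 96.4 in CMCT. Tuba1c had 83.3 and 77.3, 72.6 and 52.3, and 66.5 and 84.6, in the same order of libraries. In both, the CMCT values overlapped those of NT, and in both DMS replicate 2 was the lowest library.

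Of the actin-binding proteins, Pfn1 had 86.5 and 98.1 in NT, 52.0 and 41.5 in DMS and 39.3 and 51.1 in CMCT, with NT apart from all treated libraries. Cfl1 had 38.7 and 51.8 in NT, 34.8 and 31.6 in DMS, and 32.7 and 43.4 in CMCT, with an overlap of NT and CMCT. Tmsb4x had 12.9 and 12.8 in NT, 15.95 and 10.7 in DMS, and 17.8 and 20.2 in CMCT, with both CMCT libraries above all others. Vim was lowest, with 9.39 and 6.98 in NT, 11.3 and 6.57 in DMS, and 8.10 and 9.28 in CMCT, and its groups overlapped. The median of 7943 protein-coding genes was 4.42 to 5.90 in the 6 libraries. How many of these genes had both NT libraries above all treated ones was not counted. In NT, the mean ± SD (n = 2) was 269 ± 28.2 for Actb, 120 ± 8.15 for Tubb5, 107.6 ± 0.03 for Tuba1b, 92.3 ± 8.20 for Pfn1, 84.5 ± 5.12 for Tuba1a, 80.3 ± 4.23 for Tuba1c, 61.1 ± 12.2 for Actg1, 45.2 ± 9.21 for Cfl1, 12.9 ± 0.07 for Tmsb4x and 8.19 ± 1.70 for Vim. In this order, the replicates of Pfn1 overlapped those of Tuba1a and the replicates of Tuba1a overlapped those of Tuba1c, while those of the other neighbours did not overlap. At positions with 20 genome places or fewer, the NT means were 127 for Actb, 51.2 for Pfn1 and 44.8 for Tubb5, and Tuba1b stayed at 107.6. Tubb5 then had a mean near that of Cfl1 (45.5), and their NT replicates overlapped (49.9 and 39.8 against 38.9 and 52.0). The NT values of Tubb5 also overlapped its DMS values (45.3 and 34.0) and CMCT values (40.2 and 43.6).

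**Figure D1:**
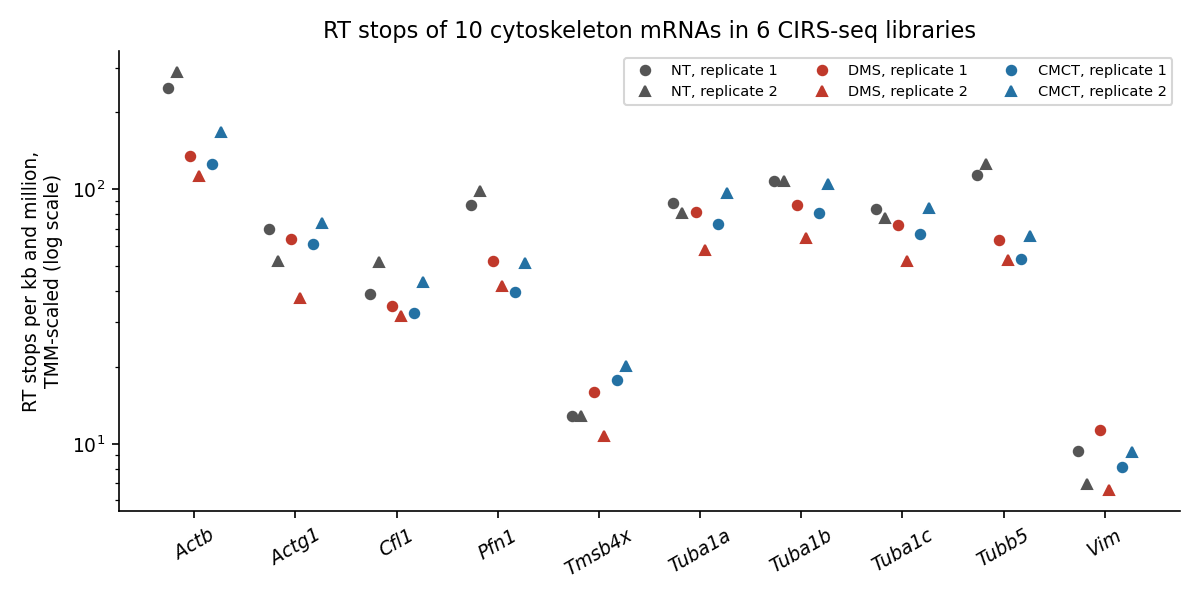
RT stops as RPKM (TMM-scaled, log axis) of the 10 mRNAs, with 1 symbol per library: circles are replicate 1, triangles replicate 2, grey NT, red DMS and blue CMCT. Both NT libraries of Actb (249 and 289), Tubb5 (114 and 126) and Pfn1 (86.5 and 98.1) lie above all 4 treated libraries. Those of Tuba1b (107.6 in both) do so by a small margin, with CMCT replicate 2 at 104. How many other genes have this order was not counted. Vim lies lowest.

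In Actb, Tubb5 and Pfn1, most NT stops lay in a single stretch of the 3′ UTR. Each of these 3′ UTRs holds a run of U: 29 U in Actb, 26 in Tubb5 and 20 in Pfn1. The 5′ ends of the runs are printed because the stops of these 3 mRNAs turn on them, with the U of the run in capitals, after 6 bases that precede it (24 of the 29 and of the 26 U are printed for Actb and Tubb5).
Actb, chr5:143665334-143665363, minus strand: uuaaagUUUUUUUUUUUUUUUUUUUUUUUU
Tubb5, chr17:35971648-35971677, minus strand: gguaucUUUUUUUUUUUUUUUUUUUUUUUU
Pfn1, chr11:70465376-70465401, minus strand: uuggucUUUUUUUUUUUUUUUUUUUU
The Actb run starts 120 bases after the stop codon, the Tubb5 run 256 bases after it and the Pfn1 run 231 bases after it. Together with the 20 bases before the run, a window of 49 bases held 53012 and 52450 Actb RT stops in the NT replicates, 15501 and 15653 in DMS and 16640 and 15165 in CMCT. That was 51.0% and 57.8% of the stops of the transcript in NT, 23.4% and 29.5% in DMS, and 20.4% and 23.3% in CMCT. In Tubb5, a window of 46 bases held 34474 and 34492 stops in NT (58.0% and 70.2%), 11637 and 11653 in DMS (29.3% and 36.6%) and 11377 and 11299 in CMCT (26.1% and 35.4%). In Pfn1, a window of 40 bases held 7843 and 7843 stops in NT (56.6% and 66.7%), 2807 and 2807 in DMS (27.9% and 36.6%) and 2546 and 2546 in CMCT (26.1% and 33.8%). In all 3 mRNAs the share was higher in both NT libraries than in any treated one. Of 7100 covered mRNAs, 616 outside these 10 (8.69%) had a U run of at least 15 in the 3′ UTR, and their median share of stops in the window was 65.5% and 70.3% in NT, 44.9% and 46.2% in DMS and 34.4% and 47.4% in CMCT. The 3 cytoskeleton mRNAs thus had shares near or below those medians. How many of the 616 had both NT libraries above all treated ones was not counted.

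The counts around the U runs were also nearly the same in both replicates of a treatment, although the replicates differ in depth. The position with the most stops in the Pfn1 window, a G 220 bases after the stop codon, had 1829 and 1830 stops in NT, 601 and 601 in DMS and 554 and 554 in CMCT, and its 25 bases occur at 17 places. In the Actb window this was a G 119 bases after the stop codon, with 5212 and 5211 in NT, 1350 and 1352 in DMS and 1452 and 1415 in CMCT, at 216348 places. In the Tubb5 window an A 253 bases after the stop codon had 3830 and 3828, 1136 and 1137, and 1151 and 1145, at 15368 places. Among positions with at least 50 NT stops, counts of the NT replicates differed by at most 1 at 10 of 10 positions in the Pfn1 window and 3 of 32 outside it. In Tubb5 these were 7 of 16 in the window and 16 of 171 outside, and in Actb 8 of 21 and 47 of 346. The spread between replicates at such positions does not measure the error of independent cultures. RNA-seq had 0 alignments in the Pfn1 window, against 2.64 per base over its 3′ UTR, 0.304 per base in the Tubb5 window against 3.37, and 9.47 in the Actb window against 16.7. Whether these stops come from the 3 mRNAs or from other RNAs with the same sequence was not tested. A shorter run of 15 U in Actb, 283 bases after the stop codon, held 1224 and 1223 stops in NT, 488 and 486 in DMS and 432 and 425 in CMCT. A run of 15 U in Tubb5, 992 bases after the stop codon and with windows found at no more than 3 places, held 0 and 1, 3 and 4, and 6 and 4 stops.

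**Figure D2:**
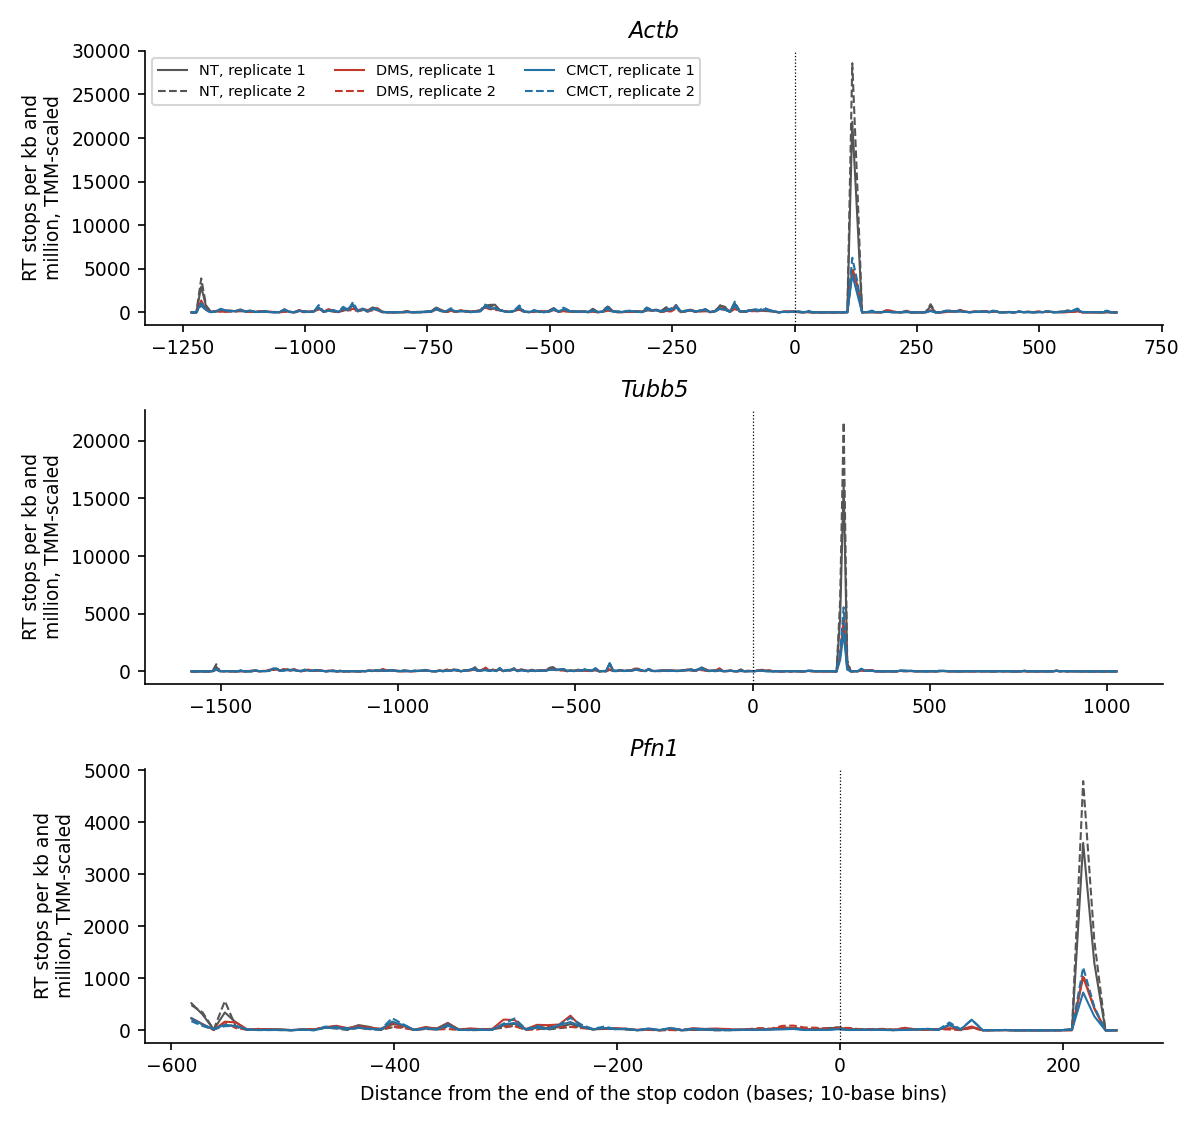
RT stops as RPKM (TMM-scaled) in bins of 10 bases along the transcripts of Actb, Tubb5 and Pfn1, against the distance from the end of the stop codon (dotted line), with solid lines for replicate 1, dashed lines for replicate 2, grey for NT, red for DMS and blue for CMCT. In each mRNA, a peak at the U run of the 3′ UTR stands far above all other bins and is highest in NT.

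Whether the RT stops of a gene differed between treated and NT libraries was tested with edgeR's quasi-likelihood test, with Benjamini-Hochberg adjustment over 13216 genes. Pfn1 had fewer stops after DMS (log2 change −0.98, SE 0.32, adjusted p = 0.0371) and after CMCT (−1.03, SE 0.32, adjusted p = 0.0288), and it was the 1 member called among the 10 in either comparison. Over all genes, 12.5% were called lower after DMS and 13.9% after CMCT, so 1 in 10 is close to the share of all genes. Tubb5 had log2 changes of −1.05 (SE 0.37, adjusted p = 0.0554) and −1.01 (SE 0.37, adjusted p = 0.0601), and Actb of −1.12 (SE 0.40, adjusted p = 0.0586) and −0.87 (SE 0.40, adjusted p = 0.127), for DMS and CMCT, which missed the threshold of 0.05. DESeq2 called both genes lower in both comparisons, Actb with adjusted p = 0.00103 and 0.00524 and Tubb5 with 0.000634 and 0.000295. With a replicate block in edgeR, Tubb5 was called in both (adjusted p = 0.0292 and 0.0386) and Actb after DMS (adjusted p = 0.0432). The other 7 mRNAs had changes from −0.51 (Tuba1b) to 0.13 (Vim) after DMS and from −0.25 (Cfl1) to 0.56 (Tmsb4x, adjusted p = 0.160) after CMCT, against a median of all genes of 0.01 and 0.11.

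These changes depended on which positions were counted. Positions at 20 genome places or fewer kept 50.4% and 43.8% of the NT stops of Actb, 58.7% and 51.6% of those of Pfn1 and 42.6% and 30.8% of those of Tubb5. With these positions, the Pfn1 change became −0.56 (SE 0.25, adjusted p = 0.161) after DMS and −0.65 (SE 0.25, adjusted p = 0.140) after CMCT. These positions still include the strongest stop of the Pfn1 U-run window, at 17 places, while those of Actb and Tubb5, at 216348 and 15368 places, were left out. Tubb5 moved to −0.22 in both comparisons, and Actb to −0.49 and −0.26. At these positions none of the 10 mRNAs was called by edgeR, and 0 (DMS) and 1 (CMCT) passed an unadjusted p of 0.05, while 6.83% of all genes were called higher and 5.89% lower after DMS, and 6.39% and 3.62% after CMCT. At positions found once none of the 10 was called either, but some changes were larger than with all positions. There Tuba1c had −0.99 (adjusted p = 0.0536) after DMS, Tuba1b −0.85 (adjusted p = 0.0990) and Cfl1 −0.87 (adjusted p = 0.101), and after CMCT Cfl1 had −0.997 (adjusted p = 0.0960), and 3 (DMS) and 2 (CMCT) passed an unadjusted p of 0.05. Positions of equal counts were those where the replicates of at least 1 group held at least 50 stops together and differed by at most 1. With such positions left out of all libraries, Pfn1 had changes of −0.10 and −0.08. The direction of Actg1, Cfl1, Tuba1a, Tuba1b and Tuba1c after DMS turned with the scaling: with library totals in place of TMM, the median of all genes rose to 0.54 (DMS) and 0.49 (CMCT), and the 5 genes stood at 0.24, 0.11, 0.25, 0.03 and 0.17, all below that median. After CMCT the direction of Cfl1 (0.16), Tuba1b (0.17) and Tuba1c (0.29) turned as well. Of the genes called after DMS, 80.6% were then higher, against 52.5% with TMM, and after CMCT 73.1% against 51.8%. Tmsb4x was called higher after CMCT with library totals (0.95, adjusted p = 0.0273), while Pfn1 was not called in either comparison (−0.44 and −0.64). The DMS call of Pfn1 was lost without any 1 of the NT or DMS libraries (−0.89 to −1.16, adjusted p from 0.0710 to 0.140), and the CMCT call without NT replicate 1 (adjusted p = 0.0604), NT replicate 2 (0.135), DMS replicate 1 (0.0592) or CMCT replicate 1 (0.114).

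**Figure D3:**
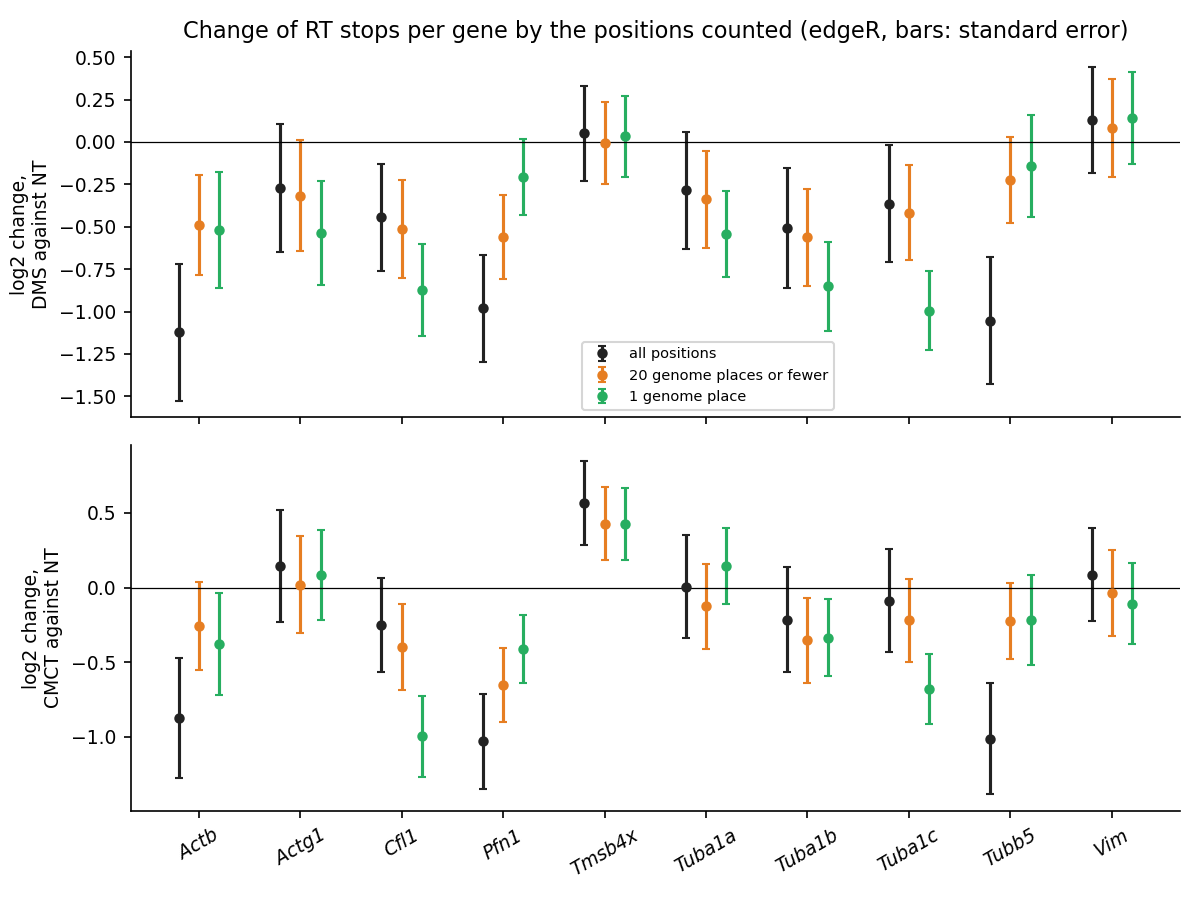
Log2 change of RT stops per gene, DMS against NT (top) and CMCT against NT (bottom), from edgeR with bars for 1 standard error, for all positions (black), positions at 20 genome places or fewer (orange) and positions at 1 genome place (green). The change of Tubb5 after DMS moves from −1.05 with all positions to −0.22 at 20 places or fewer, and that of Pfn1 from −0.98 to −0.56. The strongest stop of the Pfn1 U-run window, at 17 places, is kept at 20 places or fewer.

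After DMS, all 10 mRNAs had a higher share of RT stops at A in both DMS libraries than in both NT libraries. This held in 79.0% of 13215 genes. The share at U was lower in all 10, against 73.9% of genes. Since the α-tubulins and Actg1 are not separate measurements, counts out of the 10 here and below are not counts of independent genes. In Vim, A held 12.1% and 13.1% of the stops in NT, 33.0% and 46.8% in DMS, and 13.5% and 14.9% in CMCT. In Tmsb4x these were 19.3% and 23.9%, 36.9% and 54.3%, and 10.6% and 10.8%, the highest shares of the 10 after DMS. In both mRNAs the DMS libraries stood apart from the other 4, and DMS replicate 2 was the higher of the pair, as in the other 8.

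Among the actins, Actb had 16.1% and 16.4% of its stops at A in NT and 24.6% and 28.2% in DMS, while Actg1 had 9.96% and 10.3% in NT and 23.9% and 31.9% in DMS. Among the tubulins, Tuba1b went from 8.79% and 9.89% to 22.6% and 31.6%, and Tubb5 from 11.4% and 11.6% to 24.9% and 29.0%. Pfn1, which had the lowest NT shares at A (4.81% and 4.07%), reached 15.8% and 21.8%. At positions found once, Pfn1 had 11.2% and 11.9% in NT and 23.6% and 35.5% in DMS. For C, the other target of DMS, the DMS libraries stood above NT in 2 mRNAs and below in 2, against 20.6% and 39.6% of genes, and the test of usage described next called none of the 10, against 2.58% of all C features called higher.

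The test of usage, which compares each base with the other bases of its gene in the same edgeR fit, called A higher after DMS in 7 of the 10 mRNAs. Over all genes 54.7% of the A features were called higher, with a median log2 change of 1.28. Of the 7, the α-tubulins and Actg1 are not separate measurements. The 7 were Pfn1 (2.08, SE 0.22, adjusted p = 8.55e-05), Vim (1.61, SE 0.37, adjusted p = 0.00473), Tuba1b (1.51, SE 0.27, adjusted p = 0.0192), Actg1 (1.41), Cfl1 (1.39), Tuba1c (1.36) and Tuba1a (1.30). Tubb5 had 1.22 (adjusted p = 0.0979), Tmsb4x 1.03 (adjusted p = 0.0615) and Actb 0.69 (adjusted p = 0.464). At positions with 20 places or fewer, Actb rose by 1.62 (adjusted p = 0.00848) and Tubb5 by 1.53 (adjusted p = 0.0116), and 9 of 10 were called, against 61.0% of all A features. No A change of the 10 was above 1.62 there, so the 2.08 of Pfn1 was not kept. With 1 library left out, 8 of the 10 were called without DMS replicate 1 and 7 without either CMCT replicate. Without NT replicate 1 there was 1, without NT replicate 2 there were 3 and without DMS replicate 2 there were 2, with medians of the 10 log2 changes of 1.23, 1.47 and 1.14 against 1.37 with all libraries. Without positions of equal counts 4 were called, with a median of 1.36, against 51.0% of all A features.

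After CMCT, U held a larger share of the stops in both CMCT libraries than in both NT libraries in 6 of the 10 mRNAs and a smaller one in 2, against 66.7% and 15.9% of genes. G, the other residue that CMCT modifies, held a larger share in 2 and a smaller one in 5, against 13.9% and 55.5% of genes. For U, Tmsb4x was at the top, with 27.8% and 24.9% in NT and 53.4% and 56.0% in CMCT. Cfl1 went from 28.6% and 26.8% to 37.8% and 37.2%, and Tuba1b from 29.4% and 31.0% to 39.6% and 40.9%. Actb, with 48.3% and 52.3% in NT and 44.9% and 47.8% in CMCT, and Tubb5, with 49.3% and 54.5% in NT and 45.6% and 48.1% in CMCT, stood lower, and in Pfn1 and Vim the groups overlapped. At positions with 20 places or fewer, U stood higher after CMCT in 9 of 10, against 68.6% of genes. By edgeR's test of usage no base of the 10 mRNAs was called after CMCT, 3 of their 40 base features passed an unadjusted p of 0.05, all in Tmsb4x, and 3.2% of the features of all genes were called. Of these, U of Tmsb4x had a log2 change of 1.06 (SE 0.39, adjusted p = 0.275), against a median of 0.27 over all U features, of which 1.12% were called higher.

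**Figure D4:**
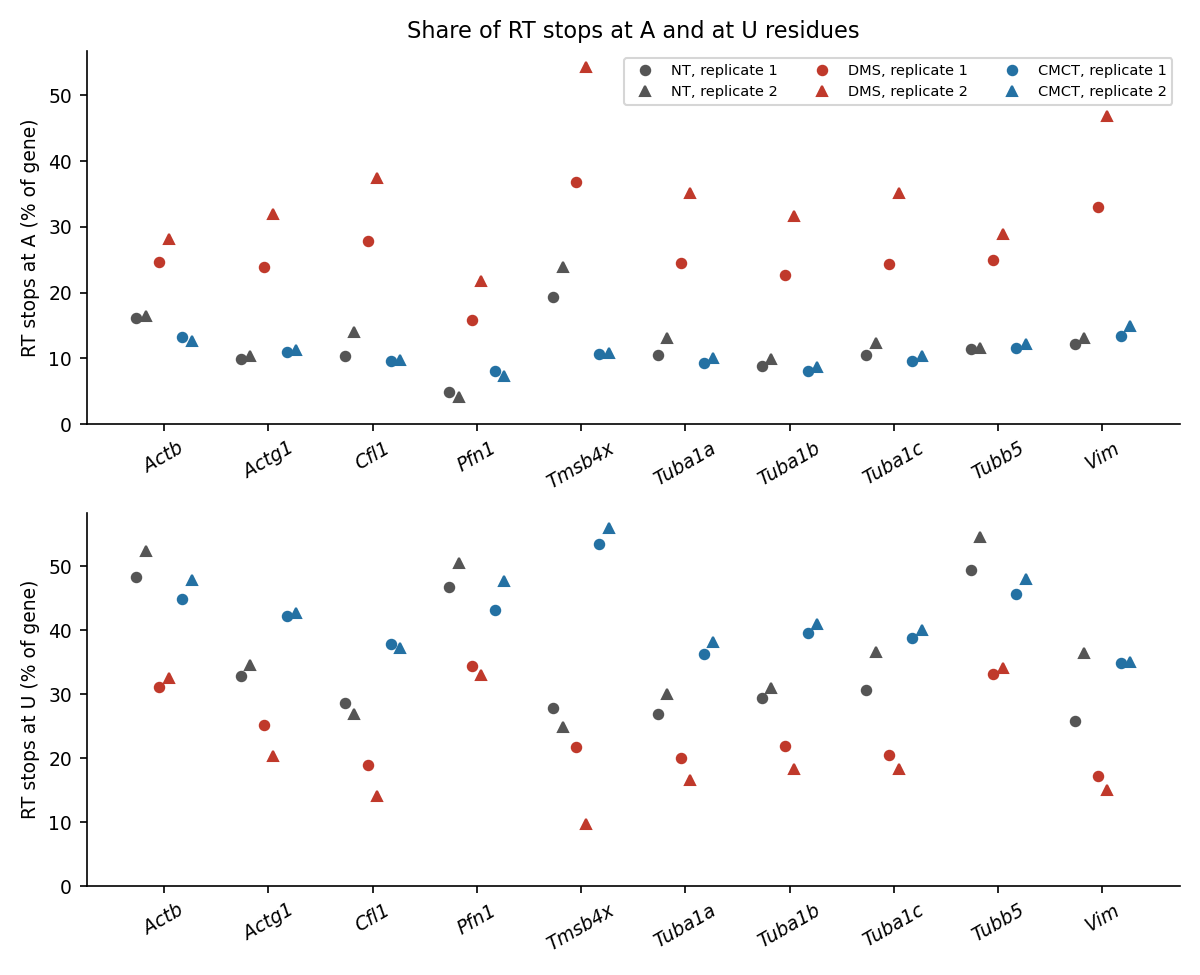
Share of the RT stops of each gene at A (top) and at U (bottom), in percent, with circles for replicate 1, triangles for replicate 2, grey for NT, red for DMS and blue for CMCT. Both DMS libraries lie above both NT libraries for A in all 10 mRNAs, and the CMCT libraries of Tmsb4x reach 53.4% and 56.0% for U.

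Within the transcripts, the 5′ UTR of Vim had the largest change of a region, as given with its test in the next paragraph. It had 1.08 and 1.28 RT stops per base in NT, 0.467 and 0.442 in DMS, and 0.481 and 0.179 in CMCT, so both NT libraries lay above all treated ones. RT stops per base are raw counts here and below, not scaled to library depth, so depth is part of the differences between libraries. The 3′ UTR of Vim had 0.307 and 0.223 in NT, 1.01 and 0.767 in DMS, and 1.21 and 0.913 in CMCT, with the groups in the opposite order. Its coding region had 1.88 and 0.734, 3.16 and 1.61, and 2.75 and 1.85, and here the replicates of NT and of DMS differed by about as much as the groups.

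The edgeR test of usage called 4 of the 30 regions of the 10 mRNAs after DMS and 5 after CMCT, against 13.7% and 18.1% of all 15797 regions. The share of the Vim 5′ UTR fell after DMS (log2 change −2.09, SE 0.30, adjusted p = 0.000146) and after CMCT (−2.61, SE 0.31, adjusted p = 1.73e-05). The share of its 3′ UTR rose after DMS (1.09, SE 0.32, adjusted p = 0.0293) and after CMCT (1.40, SE 0.32, adjusted p = 0.00467). Of all 5′ UTRs, 13.1% were called lower after DMS and 25.6% after CMCT, and of all 3′ UTRs 3.32% and 3.4% were called higher. The 3′ UTR call after DMS was lost without NT replicate 1 (0.85, adjusted p = 0.140), without DMS replicate 2 (0.90, adjusted p = 0.185), at positions found once (1.11, adjusted p = 0.0854), at 20 places or fewer (1.10, adjusted p = 0.0621) and with library totals (1.13, adjusted p = 0.0984), and the 5′ UTR calls were kept under every alternative tried. The strongest stop of the Vim 5′ UTR was a U 123 bases before the start codon (chr2:13495936), with 124 and 303 stops in NT, 45 and 67 in DMS and 35 and 12 in CMCT. RNA-seq had 0.198 alignments per base in this 5′ UTR, against 0.958 in the coding region and 1.42 in the 3′ UTR.

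Among the tubulins, the 5′ UTR of Tuba1c had 2.78 and 3.16 RT stops per base in NT, 1.17 and 1.52 in DMS, and 2.18 and 1.27 in CMCT, with NT above the treated libraries. Its share fell by 1.26 (SE 0.27, adjusted p = 0.00368) after DMS and by 1.29 (SE 0.27, adjusted p = 0.00239) after CMCT on the log2 scale. A U 103 bases before the start codon, at a sequence found once, had 616 and 651 stops in NT, 129 and 302 in DMS, and 172 and 14 in CMCT. Both calls were lost at positions found once (−0.64 and −0.87, adjusted p = 0.565 and 0.209) and without NT replicate 2 (adjusted p = 0.104 and 0.078). The DMS call was also lost without DMS replicate 1 (adjusted p = 0.277) and with library totals (adjusted p = 0.0554), and the CMCT call without CMCT replicate 2 (adjusted p = 0.093).

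The 3′ UTR of Tuba1c had 0.451 and 0.380 stops per base in NT, 0.761 and 0.690 in DMS and 1.56 and 1.42 in CMCT. Its share rose after CMCT (1.45, SE 0.34, adjusted p = 0.00494), a call that was lost without CMCT replicate 2 (1.32, adjusted p = 0.0702). The 5′ UTR of Tuba1b had more stops per base in NT (25.9 and 27.7) than in the treated libraries (14.5 to 20.2). A C 99 bases before the start codon held 1600 and 2128 stops in NT, 664 and 931 in DMS and 499 and 406 in CMCT, but the share of this 5′ UTR did not pass the test (−0.84 in both comparisons, adjusted p = 0.243 and 0.213).

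Of the actin-binding proteins, Pfn1 had 6.19 and 3.15 RT stops per base in its coding region in NT. It had 10.6 and 6.25 in DMS and 9.59 and 7.16 in CMCT, all without scaling for depth, which differs between the libraries. The share of this region rose by 1.44 (SE 0.31, adjusted p = 0.00595) after DMS and by 1.47 (SE 0.31, adjusted p = 0.00352) after CMCT. Of all coding regions, 15.5% and 19.0% were called higher. The NT stops of Pfn1 lay mostly at the U run of its 3′ UTR, and with positions at 20 places or fewer the changes were 0.94 and 0.95 (adjusted p = 0.237 and 0.186). The strongest stop of the U-run window, at 17 places, is still among these positions. Without positions of equal counts, Pfn1 had 0.52 in both comparisons (adjusted p = 0.661 and 0.606). Both calls were lost without NT replicate 2 (adjusted p = 0.243 and 0.186), and the DMS call also without DMS replicate 1 (adjusted p = 0.0823).

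Tmsb4x, which encodes a very short protein, had almost no RT stops in the 502 bases annotated as 5′ UTR of its transcript, with 0.004 to 0.040 per base in the 6 libraries, and RNA-seq had 9 alignments there against 416 in the coding region of 153 bases. Its 3′ UTR had a U 150 bases after the stop codon (chrX:163645283) with 370 and 282 stops in NT, 374 and 46 in DMS, and 2117 and 1542 in CMCT. Both CMCT replicates lay far above every NT and DMS count at this U, and DMS replicate 2 was far below DMS replicate 1. In Actb, a C 81 bases before the start codon held 1710 and 2248 stops in NT, 1155 and 1121 in DMS and 897 and 350 in CMCT. The other regions of the 10 mRNAs did not pass the test.

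Reactivity sets the treated against the NT stops of each position, from 0 for a position with no gain to 1 for the most modified ones of the transcript. In the coding region, Tmsb4x had a mean of 0.625, Pfn1 0.592, Tubb5 0.507 and Actb 0.495. Vim had 0.438, Tuba1c 0.416, Cfl1 0.403, Tuba1b 0.381, Tuba1a 0.373 and Actg1 0.362. All 10 stood above the median of 0.347 over 5234 other covered mRNAs. The first place of Tmsb4x depended on the pseudocount added to each count. With 5 in place of 1, Tmsb4x had 0.418, below Pfn1 (0.624), Tubb5 (0.576), Actb (0.574), Tuba1c (0.438) and Cfl1 (0.426). Positions at 0, which were 72.2% in Tmsb4x, enter the percentile that scales a transcript, and their part in its mean was not tested. The 10 mRNAs are covered more deeply than most, with 6.84 (Vim) to 139 (Actb) stops per base from DMS and CMCT together, and the part of depth in these means was not tested. Stops are scaled to the transcript mean, and the U-run windows of Pfn1, Tubb5 and Actb held 51.0% to 70.2% of their NT stops but 20.4% to 36.6% of their treated stops. The part of this difference in their coding-region means was not tested either.

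The untranslated regions varied more. In the 5′ UTR, Actg1 had 0.501, Pfn1 0.455, Tubb5 0.440, Actb 0.399, Cfl1 0.322, Tuba1a 0.275 and Tuba1b 0.214, with a median of 0.217 in other mRNAs. The 5′ UTRs of Tuba1c (0.0756), Vim (0.0723) and Tmsb4x (0.0173) are not placed in this order, since positions without a treated stop count as 0. No DMS or CMCT stop was read at 84.0% of the 5′ UTR positions of Tuba1c, 79.4% of those of Vim and 94.6% of those of Tmsb4x, against 40.0% in Tuba1b and 5.49% in Pfn1. In the 3′ UTR, Actb had 0.502 and Tuba1c, with 54.9% of the positions without a treated stop, 0.280, against a median of 0.231. The coding region exceeded the 5′ UTR in 9 of 10 mRNAs, Tmsb4x, Tuba1c and Vim with their mostly empty 5′ UTRs among them and Actg1 as the exception, against 86.3% of other mRNAs. It exceeded the 3′ UTR in 6 of 10, against 89.1%. The 4 in which it did not were Actg1, Actb, Tuba1a and Tuba1b. In Actb the regions differed by 0.495 against 0.502 and in Tuba1a by 0.373 against 0.375. With a pseudocount of 5, the coding region exceeded the 3′ UTR in Actb (0.574 against 0.514), Tuba1a (0.377 against 0.220) and Tuba1b (0.412 against 0.385). Actg1 stayed below (0.363 against 0.393), and 89.6% of other mRNAs had the coding region above. With replicate 1 alone, 8 of 10 had the coding region above the 3′ UTR, and with replicate 2 alone 9 of 10, so this order was not settled by the replicates.

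**Figure D5:**
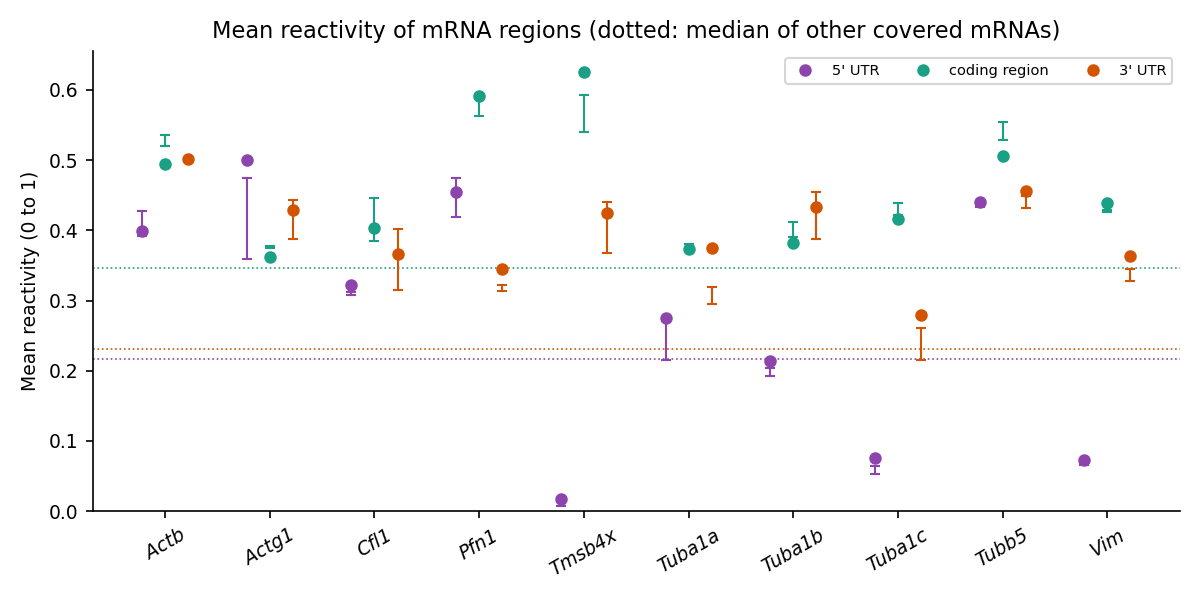
Mean reactivity (0 to 1) by region of each mRNA, with dots for both replicates summed, bars that span the values of each replicate alone, and dotted lines for the medians of other covered mRNAs. All coding regions lie above their line at 0.347, and the 5′ UTRs of Vim, Tuba1c and Tmsb4x, in which 79.4% to 94.6% of the positions had no treated stop, lie below 0.1.

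Across bases, A had the highest mean reactivity in every one of the 10 mRNAs, from 0.480 in Vim to 0.695 in Actb, apart from Tmsb4x with 0.349, where 72.2% of the positions were at 0, with almost no stops in its 5′ UTR. How many other covered mRNAs had A highest is not given here, and 79.0% of all genes had a higher share of stops at A after DMS. With DMS alone, A had a mean of 0.659 in Actb against 0.330 for C, 0.236 for G and 0.150 for U. With CMCT alone, U had 0.436 in Actb against 0.384 for A, 0.350 for G and 0.299 for C. Within codons, codon position 3 was the least reactive in all 10 mRNAs, against 57.0% of 5233 other covered mRNAs. Of the 10, the α-tubulins and Actg1 are not separate measurements. The codon values were not divided by the mean of each base, and the part of base composition in this order was not tested. In Tuba1b the means were 0.407, 0.432 and 0.306 for codon positions 1, 2 and 3, and in Tubb5 0.518, 0.540 and 0.461. In Tmsb4x they were 0.600, 0.677 and 0.598, so that positions 1 and 3 were not separated.

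The 30 bases with the highest mean reactivity in a coding region were taken as its window, a choice that itself favours treated over NT stops. They are printed for Tmsb4x, Pfn1, Actb, Tubb5 and Vim, in mm9, with bases of a reactivity above 0.7 in capitals.
Tmsb4x, chrX:163645908-163645937, minus strand: aGAAAUUcGAUaagUCGAAGUUGaAgAAAA
Pfn1, chr11:70466422-70466451, minus strand: GACcGGUcAAGUUUuUUcGUcAAuGgGCUg
Actb, chr5:143665522-143665551, minus strand: UUCcAgcAgAUGUgGAUCAgcAAGcAGgAG
Tubb5, chr17:35972004-35972033, minus strand: AAgCUGAGAgcAacaUgAAcgAcCUCgUCU
Vim, chr2:13503273-13503302, plus strand: cCCAcUcAAAAAgAacACUccugAUuAAGA
Tubb5 had its window near the end of the coding region, from codon 410, with a mean of 0.767 and 202 and 166 stops in NT, 780 and 557 in DMS and 429 and 339 in CMCT.

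The Tmsb4x window, from codon 17, had a mean of 0.832 and held 50.0% A. It had 12 and 14 stops in NT, 103 and 90 in DMS and 98 and 84 in CMCT, and replicate 1 alone gave 0.708 and replicate 2 alone 0.670. The Pfn1 window, from codon 55, had a mean of 0.829, with 310 and 140 stops in NT, 818 and 282 in DMS and 703 and 562 in CMCT, so DMS replicate 2 lay below NT replicate 1 there. The Actb window, from codon 352, had 0.788, with 859 and 550 stops in NT, 1568 and 1143 in DMS and 1863 and 1660 in CMCT. The Vim window, from codon 436, had 0.694, the highest 30 bases of an mRNA with few stops, at 39 and 24 in NT, 122 and 114 in DMS and 96 and 59 in CMCT. All bases of the Tmsb4x, Pfn1 and Vim windows were followed by sequences found once.

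Other genes of the cytoskeleton were followed by the same test. Of 76 genes of 6 lists, 58 were among the transcripts probed, 4 of them were higher and 8 lower after DMS, and 9 were higher and 10 lower after CMCT, with median log2 changes of −0.02 and 0.25. Over all genes 13.8% and 12.5% were called higher and lower after DMS, and 15.0% and 13.9% after CMCT. With positions at 20 places or fewer, 1 was higher and 3 were lower after DMS, and 2 and 3 after CMCT.

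Of 4 muscle actins, 2 were higher after DMS and 3 after CMCT. Actg2, a smooth muscle actin, rose by 1.24 (SE 0.28, adjusted p = 0.00638) and 1.95 (SE 0.29, adjusted p = 0.000722), with 386 and 380 stops in NT, 1262 and 1253 in DMS and 2051 and 2045 in CMCT. RNA-seq counted 1 alignment on Actg2 and 1 on Actc1, the cardiac actin, which had changes of 0.96 and 1.70. At 20 places or fewer the DMS calls of Actg2 (1.13, adjusted p = 0.0790) and Actc1 (0.89, adjusted p = 0.128) were lost, and at positions found once both calls of Actc1 (adjusted p = 0.128 and 0.0632). Of 8 subunits of the Arp2/3 complex, which nucleates branched actin filaments, only Arpc4 was called in either comparison, at −1.01 (SE 0.26, adjusted p = 0.0140) and −0.82 (SE 0.26, adjusted p = 0.0361), and it was not called at positions with 20 places or fewer (−0.58 and −0.35). Arpc4 stood at −0.15 and 0.11 at positions found once and at −0.16 and 0.23 without positions of equal counts, so the direction after CMCT turned.

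Of 28 actin-binding genes tested, 5 were lower and 0 higher after DMS, with a median of −0.15, and 7 were lower and 3 higher after CMCT, with a median of 0.26. Myh9, the heavy chain of non-muscle myosin, had −1.99 (SE 0.38, adjusted p = 0.00229) after DMS and −1.90 (SE 0.38, adjusted p = 0.00296) after CMCT. Its stops were 53445 and 52797 in NT, 18660 and 18568 in DMS and 21574 and 18569 in CMCT. At positions found once Myh9 stood at 0.11 (adjusted p = 0.748) and 0.68 (adjusted p = 0.115), and without positions of equal counts at −0.15 and 0.33. At 20 places or fewer the DMS call was kept (−1.48, adjusted p = 0.0212) and the CMCT call was lost (−1.07, adjusted p = 0.0515). Cap1, which binds actin monomers, had −1.83 (SE 0.35, adjusted p = 0.00240) after DMS, and it was called at 20 places or fewer (−1.66, adjusted p = 0.0201) and without positions of equal counts (−1.32, adjusted p = 0.0220) but stood at 0.03 at positions found once. Capza2, a capping protein of filament ends, was called lower after CMCT (−2.57, SE 0.69, adjusted p = 0.0149), with 24913 and 6556 stops in the CMCT replicates and 44417 and 67923 in NT. The call was kept without positions of equal counts (−2.60, adjusted p = 0.0348), but Capza2 had 0.31 at positions found once and 0.35 at 20 places or fewer. Of 8 tubulins tested, Tubg1, the γ-tubulin that nucleates microtubules, was the 1 called in both comparisons (1.91, SE 0.30, adjusted p = 0.00100 and 0.89, SE 0.29, adjusted p = 0.0383). Both calls of Tubg1 were lost at positions found once (0.61, adjusted p = 0.114 and 0.08, adjusted p = 0.821) and at 20 places or fewer (0.79, adjusted p = 0.0513 and 0.16, adjusted p = 0.632). Of 5 microtubule-associated genes tested, Tbca, a tubulin folding cofactor, was higher after DMS (1.08, SE 0.26, adjusted p = 0.0077), a call lost at positions found once (0.73, adjusted p = 0.0952). The call was kept at 20 places or fewer (1.04, adjusted p = 0.0240) and without positions of equal counts (1.09, adjusted p = 0.0186). Tbcb, another such cofactor, was lower in both (−0.95 and −1.03), but Tbcb stood at −0.12 (adjusted p = 0.755) and −0.37 (adjusted p = 0.350) at positions found once, and at −0.17 and −0.20 without positions of equal counts. At 20 places or fewer Tbcb had −1.01 (adjusted p = 0.0550) and −1.17 (adjusted p = 0.0424), so only the CMCT call was kept there. Ckap5, a microtubule polymerase, was higher after CMCT (0.89), and this call was lost at positions found once (0.77, adjusted p = 0.109) and at 20 places or fewer (0.76, adjusted p = 0.0678). Of 5 intermediate filament genes tested, Lmna, a lamin of the nuclear envelope, was called lower in both (−1.81 and −1.85, SE 0.32). Lmna was also called lower at positions found once (−1.66 and −1.84), and it stood at 0.05 and 0.44 without positions of equal counts.

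The genes whose RT stops varied over the 6 libraries most like Actb were L3mbtl2, Dyrk1a and Arpc4, with a root mean square difference of 0.0328, 0.0473 and 0.0515 in log2 CPM (the same depth scaling without the length) centred on each gene. The median of the 12190 genes compared was 0.628. Among the 10 mRNAs, Tubb5 ranked 22 (0.0920) and Pfn1 ranked 43 (0.120), while Actg1, the other cytoplasmic actin, ranked 3682 (0.505). This likeness was computed with all positions, at which the change of Actb after DMS was −1.12 against −0.49 at 20 places or fewer, and it was not computed with fewer places.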

How the data were processed

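The authors deposited raw counts of RT stops per transcript position, without normalization. Reads were mapped to an E14 variant of mm9, and the submitters' processing notes name Bowtie 1.0.0 and bedtools 2.17.0, and TopHat2 2.0.6 for RNA-seq. The handling of reads with several places is not given in the sources used here, and it sets the counts of shared sequences. RNA-seq was deposited as alignments, counted where their midpoint lay in exons of 1 gene (70.0%).

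Transcripts were matched to GENCODE vM1. Each position was counted once per gene. Regions are those of the listed transcript with the longest coding region. Tests used edgeR 4.0.16 in R 4.3.3 (TMM with factors 0.737 to 1.22, filterByExpr, quasi-likelihood, diffSpliceDGE for usage, 1 fit of 6 libraries, adjusted p under 0.05) and were tested on simulated data. Reactivity took a pseudocount of 1, the log2 ratio of stops scaled to the transcript mean, 0 for negative ratios and for positions without a treated stop, Winsorising at the 90th percentile and the larger of both reagents. Covered mRNAs had at least 1 stop per base from DMS and CMCT together, and a region at least 20 measured positions. Intervals cover counting error only. Each SE of an edgeR change was computed back from the F statistic of its test. In the tests of usage, the ratio of a change to its SE need not follow the order of the p-values. Named genes were the 10 members, at most 2 called genes per list with the largest change, and the 3 nearest to Actb. Members and lists were chosen with earlier results of these data known, and the alternatives of 20 genome places, equal counts and library totals were added after the data were seen. The reactive windows of the α-tubulins are not reported here.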

Additional observations from a re-analysis of the deposited data

How the results depend on the processing

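The call of Pfn1 among the 10 mRNAs was the only one per gene in each comparison. After DMS, the number called was 0 with positions found once, at 20 places or fewer, without positions of equal counts and with library totals, 3 with the replicate block and 3 by DESeq2, and 0 to 3 when 1 library was left out. After CMCT it was 0 with positions found once, at 20 places or fewer and without equal positions, 2 with the replicate block, 3 by DESeq2, and 0 to 2 with 1 library left out. Deviations of same-numbered libraries had a correlation of 0.553 for DMS and NT, 0.0101 for CMCT and NT and −0.107 for CMCT and DMS. The replicate numbers thus went together for DMS and NT but not for CMCT, and the main fit had no replicate block. The block raised the calls over all genes from 3485 to 5616 after DMS and from 3827 to 5030 after CMCT. For usage by base after DMS, 7 mRNAs were called, 4 without equal positions and 1 to 8 with 1 library left out, and after CMCT 0 in all. For regions, 4 calls after DMS became 1 with positions found once, 2 at 20 places or fewer, 2 with library totals and 2 to 4 with 1 library left out, and 5 after CMCT became 2 with positions found once and 3 to 5 with 1 library left out. The median RNA-seq level went from 217 to 105 RPKM with positions found once, where Actg1 and Tuba1c, whose values are no levels of the mRNAs, are included. The 12 other cytoskeleton genes called after DMS became 2 with positions found once, 4 at 20 places or fewer, 4 without equal positions, 21 by DESeq2 and 6 to 12 with 1 library left out, and the 19 after CMCT became 2, 5 and 8 under the first 3 of these and 6 to 17 with 1 library left out. The coding region exceeded the 3′ UTR in reactivity in 8 to 9 mRNAs, and the 5′ UTR in 9 to 10, with 1 replicate alone.

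Among the other cytoskeleton genes, called changes of Arpc4, Myh9, Cap1, Capza2 and Lmna turned direction when fewer positions were counted, as given above. In the set of actin, tubulin, actin-binding and vimentin mRNAs, the log2 changes per gene that turned direction had passed no test. With library totals, which moved the median of all genes to 0.54 and 0.49, above each of the following values, these were, after DMS, Tuba1b 0.030, Tuba1c 0.17, Cfl1 0.11, Actg1 0.24 and Tuba1a 0.25, and after CMCT Tuba1b 0.17, Tuba1c 0.29 and Cfl1 0.16. After DMS, Tmsb4x had −0.0052 at 20 places or fewer and −0.27 without DMS replicate 1, and Vim −0.31 without DMS replicate 1 and −0.07 without NT replicate 2. After CMCT, Vim had −0.11 with positions found once, −0.0095 with DESeq2 size factors and by DESeq2, −0.036 at 20 places or fewer, −0.11 without NT replicate 2, −0.12 without DMS replicate 2 and −0.02 without CMCT replicate 2. Tuba1a had −0.10 with DESeq2 size factors and by DESeq2, −0.12 at 20 places or fewer, −0.0033 without DMS replicate 1, −0.05 without NT replicate 2, −0.19 without DMS replicate 2 and −0.20 without CMCT replicate 2. Tuba1c had 0.076 without CMCT replicate 1, and Actg1 −0.05 without NT replicate 2 and −0.060 without DMS replicate 2. With 1 library left out, the values ran from −0.31 to 0.36 for Vim after DMS, and after CMCT from −0.12 to 0.32 for Vim, −0.28 to 0.076 for Tuba1c, −0.060 to 0.36 for Actg1 and −0.20 to 0.19 for Tuba1a. The usage of U after CMCT turned to 0.28 and 0.30 in Tubb5, 0.66 and 0.88 in Pfn1 and 0.45 and 0.33 in Actb, with positions found once and at 20 places or fewer, to 0.59 in Pfn1 and 0.46 in Actb without equal positions, to −0.82 in Tuba1c with positions found once and to −0.062 in Vim without NT replicate 1, with a range of −0.062 to 0.44 with 1 library left out. The cause was not tested.

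Over all genes, the 3485 calls after DMS became 1614 at 20 places or fewer, 1030 with positions found once, 1820 without equal positions and 5595 by DESeq2, and the 3827 after CMCT became 1270, 641 and 2162 under the first 3 of these.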
